A study of Mus musculus with 18 samples.

Results

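Myocardial gene expression 6 h after the left anterior descending coronary artery had been tied was compared with that of sham-operated hearts, over all genes of the count table, in 6 of the 18 libraries of the series (3 mice a side). Every mouse was a 12-week-old male of the strain given as C57BL/6JR, with no transgene or drug named in either group beyond sodium pentobarbital for the operation (50 mg/kg in the series' text, 55 to 57 mg/kg in the labels of the 6 h mice) and isoflurane before it was killed. The 6 h mice were intubated and ligated. In the sham mice the suture was passed and not tied, and the labels place them at 0 h, so the hours after surgery and the ligation itself cannot be told apart. RNA came from the myocardial region of the infarcted left ventricle, was selected for poly(A) and was copied from random hexamers. The labels name cardiomyocytes as the cell type. The libraries held cardiomyocyte transcripts (Myh6 ran from 22722 to 24639 CPM in sham) together with endothelial (Pecam1, 223 to 236 CPM), fibroblast (Pdgfra, 38.1 to 41.9 CPM) and macrophage transcripts (C1qa, 67.9 to 79 CPM), as whole tissue does. CPM stands for a library's counts set to a common total (per M reads) after scaling of the libraries by the trimmed mean of M-values (TMM).

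When a coronary artery closes, the muscle it feeds loses oxygen, and the first hours bring an inducible program of transcription factors, alarm cytokines and chemokines. Neutrophils are the first leukocytes to enter the dying tissue, drawn by CXC chemokines and held by selectins and integrins, and inflammatory monocytes follow. Surviving cardiomyocytes switch on stretch and stress genes such as natriuretic peptides and heat shock proteins, while the contractile proteins themselves turn over slowly.

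The deposited counts summed to 21.3 to 23.5 M reads in the sham libraries and to 20.3 to 23.6 M at 6 h. Of 16311 genes tested, 4639 (28.4%) were called at an edgeR adjusted p under 0.05, 2653 (16.3%) higher and 1986 (12.2%) lower at 6 h. At least 2-fold changes numbered 1120 upward and 470 downward. All 3 libraries at 6 h lay above all 3 sham libraries for 3762 genes (23.1%) and below them for 3458 (21.2%). The median log2 fold change over all genes tested was -0.01. Scaling by the library total in place of TMM moved that median to -0.12 and turned the split of calls round, to 1914 higher and 2802 lower (40.6% higher, against 57.2%). Small changes of a whole list are therefore read here against that shift. The number called in a list is likewise to be set beside the shares over all genes, 16.3% higher and 12.2% lower. The lists were chosen with earlier results of these data known. A share above those values can come in part from that choice and is a description. Library totals also changed the number called in most lists. Values are given below for those in which the number in a direction moved by 3 or more genes, and for some others. Counts with library totals are to be set beside the 1914 higher and 2802 lower of 16311 genes found with that scaling. The p-values measure the spread between mice within groups, estimated over all 18 libraries of the series, and nothing beyond these mice.

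The 3 mice at 6 h differed in how far they stood from sham. On the 500 most variable genes the mean distance to the sham libraries was 80.5 for replicate 1, 63.9 for replicate 2 and 56.4 for replicate 3, against 16.9 to 17.1 among the sham libraries. Replicate 1 was the highest of the 3 in 1942 of the 2653 genes called higher (73.2%) and the lowest in 1079 of the 1986 called lower (54.3%). When replicate 1 was left out, 2926 genes were called, 1724 higher (10.3% of 16738 tested) and 1202 lower (7.18%). Of the genes called with all 3 mice, 1692 of the higher (63.8%) and 1136 of the lower (57.2%) were still called. All 1986 lower genes and 2652 of the 2653 higher genes kept their sign. The median change fell from 0.82 to 0.69 on the log2 scale in the higher genes and went from -0.66 to -0.60 in the lower ones. The exception was Myl7, described next.

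**Figure D1:**
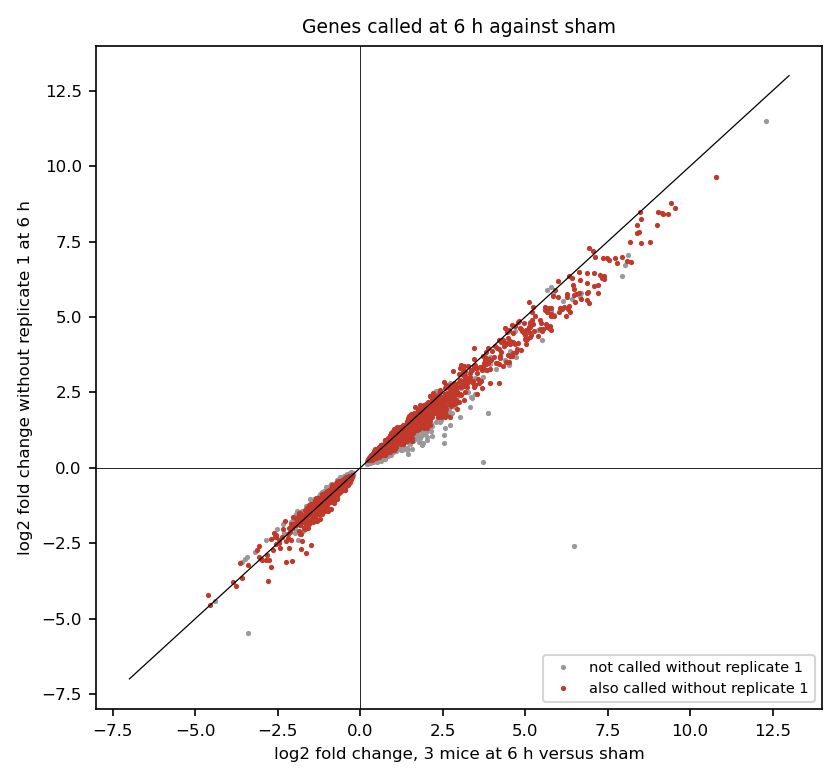
Log2 fold change at 6 h against sham with 3 mice (x axis) and without replicate 1 at 6 h (y axis) for each of the 4639 genes called, with the line of equality in black. Red points (also called without replicate 1) and grey points (not called) lie near the line, apart from Myl7 and Myl4, which are at 6.47 and 3.71 on the x axis and at -2.59 and 0.18 on the y axis.

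Transcripts of atrial muscle were raised at 6 h in replicate 1 alone. Sln, the atrial regulator of the sarcoplasmic calcium pump, stood at 42.6 CPM there, at 0 in replicates 2 and 3 and at 0 to 0.311 CPM in sham. Myl7, the atrial regulatory myosin light chain, stood at 49.3 CPM in replicate 1 and at 0.0478 and 0 CPM in the other 2, and Bmp10, an atrial growth factor, at 21.2 CPM in replicate 1 and at 0 in the other 5 libraries. Myl4, the atrial essential light chain, read 59.1, 1.96 and 1.6 CPM at 6 h and 1.3 to 2 CPM in sham. Its call (log2 change 3.71, edgeR adjusted p = 0.0198) was lost without replicate 1 (0.18, edgeR adjusted p = 0.723) and without any 1 of the sham libraries (edgeR adjusted p = 0.0573 to 0.0701). It was also lost with the 6 libraries alone (edgeR adjusted p = 0.184), with the replicate block (edgeR adjusted p = 0.06) and with limma on both FPKM scales (limma adjusted p = 0.131 and 0.164), and DESeq2 gave no adjusted p. Of 5 atrial genes tested 2 were called higher with the 3 mice and 0 without replicate 1. The part of this atrial RNA in the other differences of replicate 1 was not tested. For that reason each list below is also given without replicate 1.

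All 10 AP-1 and ATF genes tested were called higher (median log2 change 3.07) and all 10 remained so without replicate 1 (2.70), and 9 of 12 genes of the Egr, Nr4a and Krüppel-like families were higher (1.31; without replicate 1, 8 of 12 and 1.14). Fos, which pairs with Jun proteins to bind AP-1 sites, read 1.31, 2.18 and 1.64 CPM in sham and 159, 51.2 and 42.9 CPM at 6 h. Atf3, a stress-induced repressor, read 2.98, 3.06 and 3.42 CPM in sham and 209, 60 and 73.9 CPM at 6 h. In both genes replicate 1 was the highest and the other mice also lay far above every sham library. The log2 change was 5.62 for Fos (SE 0.63, edgeR adjusted p = 4.48e-05) and 5.17 for Atf3 (SE 0.53, edgeR adjusted p = 2.17e-05), and without replicate 1 it was 4.78 and 4.40. Jund, which is expressed constitutively in many tissues, rose by only 0.85. Among the other factors, Egr1 rose by 4.23 and Egr3 by 2.88, while Klf15, a glucocorticoid-induced factor of cardiac metabolism, stood at 47.4 to 59.3 CPM in sham and at 36.3 to 58.5 CPM at 6 h and was not called.

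Genes that shut such signals off rose with them: 19 of 20 feedback and mRNA decay genes were called higher (median 1.76), and 15 of 20 without replicate 1 (1.30). Btg2, an antiproliferative adaptor of the deadenylase complex, read 32.9 to 33.5 CPM in sham and 307, 155 and 198 CPM at 6 h (log2 change 2.72, SE 0.24, edgeR adjusted p = 1.86e-06). Zfp36, which destabilises cytokine mRNAs, rose by 2.97. Dusp1 and Dusp5, phosphatases that switch off MAP kinases, rose by 1.29 and 2.68.

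The median change of interleukin-6 family ligands was larger than that of its receptors, from far lower sham levels (mean summed CPM 7.06 and 319). Ligands with few sham counts could pass the count filter only through libraries where they were high. The size of their changes is therefore a description. The ligands had 6 of 7 genes higher with a median log2 change of 3.88, the receptors 4 of 6 with 0.85, and the signalling and feedback genes 5 of 7 with 1.47. Without replicate 1 these counts were 6, 2 and 4. Il6 itself stood at no more than 0.104 CPM in sham and at 45.6, 26.9 and 6.34 CPM at 6 h. Lif read 0.303 to 0.489 CPM in sham and 15.2, 10.2 and 4.42 CPM at 6 h, and Osm, oncostatin M, 0.0519 to 0.178 CPM and 21.8, 10.4 and 3.73 CPM. For all 3 ligands replicate 1 was the highest mouse and replicate 3 the lowest, and no 6 h library overlapped sham. Osmr, the oncostatin M receptor, was more even, with 21, 21.8 and 22.8 CPM in sham and 127, 91.4 and 100 CPM at 6 h (log2 change 2.28, SE 0.19, edgeR adjusted p = 9.61e-07). Cntfr, the receptor of ciliary neurotrophic factor and cardiotrophin-like cytokine, rose from 2.83, 2.96 and 3.91 CPM to 11, 12.7 and 15.3 CPM (SE 0.24 on the log2 scale, edgeR adjusted p = 1.58e-05). Downstream, Stat3, the transcription factor that gp130 activates, rose by 1.47, and Socs3, its feedback inhibitor, read 5.64 to 6.59 CPM in sham and 360, 155 and 119 CPM at 6 h.

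In the interleukin-1 family 11 of 16 genes were higher (median 1.25), and 7 of 16 without replicate 1 (0.95). Il1b read 0.455, 0.519 and 0.489 CPM in sham and 64.5, 38.8 and 11.2 CPM at 6 h (log2 change 6.27, SE 1.32, edgeR adjusted p = 0.00368). Its antagonists rose beside it: Il1rn, the soluble receptor antagonist, reached 37.2, 11.6 and 4.31 CPM from at most 0.152 CPM, and Il1r2, the decoy receptor, had 2 counts in the 3 sham libraries together. Its summed, scaled level was higher at 6 h by 570-fold (interval 158 to 4716; 317-fold, 87.3 to 2629, without replicate 1). These 95% intervals, here and below, are exact and cover counting error only. Il33, an alarmin kept in the nuclei of stromal and endothelial cells, rose by 2.75 (SE 0.32, edgeR adjusted p = 2.60e-05; 2.44 without replicate 1). Of 20 NF-kB subunits and inhibitors 12 were higher and Ikbkg was lower (median 0.87; 9 and 1 without replicate 1, median 0.67). Bcl3 and Nfkbiz, nuclear IkB proteins that act on NF-kB target genes, rose by 3.04 and 2.51, while Rela rose by 0.72. Tnfaip3, the A20 inhibitor, stood at 3.94 to 5.02 CPM in sham and at 23.7, 8.95 and 7.56 CPM at 6 h with no overlap and was not called (edgeR adjusted p = 0.0649).

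The list of chemokines that attract neutrophils also holds the receptors Cxcr2 and Ackr2. It had 8 of 10 genes higher and the largest median of the pathway lists, 4.41 (6 of 10 and 3.77 without replicate 1). Members with few or no sham counts could pass the count filter only through libraries where they were high. The size of this median is therefore a description. Cxcl1 read 1.16, 1.45 and 1.33 CPM in sham and 93.9, 53.2 and 25.7 CPM at 6 h (log2 change 5.44, SE 0.71, edgeR adjusted p = 0.000131), and Cxcl5 read 0.207 to 0.303 CPM and 122, 68.9 and 62.6 CPM (8.40, SE 0.84, edgeR adjusted p = 1.97e-05). Cxcl2 reached 65, 30.3 and 10.8 CPM. Cxcl3 had no count in any sham library and stood at 50.2, 25.9 and 7.35 CPM at 6 h, but its call (edgeR adjusted p = 0.0302) was lost on leaving out any library other than replicate 3 at 6 h, with edgeR adjusted p = 0.0506 without replicate 2, 0.0897 without replicate 1 and 0.0673 to 0.0717 without a sham library. These 4 genes lie in 1 cluster on chromosome 5 and are close paralogs, so reads may have been split between them. Cxcr2, the receptor they share, reached 61.6, 12.7 and 7.46 CPM from at most 0.267 CPM.

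The start regions of 4 of these cytokine genes are shown because each holds an NF-kB site. The letters searched for were GGGRNNYYCC, with R for A or G, Y for C or T and N for any base. Both strands of the 250 bases before and 50 bases after the RefSeq start (build GRCm38.p6) were searched. Of all 32851 promoters 8.46% held a match, and of those of the genes tested 10.5% did. Each run is the 150 bases before the start in the direction of transcription, with the match in capitals.
Cxcl1, chr5:90891095-90891244, plus strand: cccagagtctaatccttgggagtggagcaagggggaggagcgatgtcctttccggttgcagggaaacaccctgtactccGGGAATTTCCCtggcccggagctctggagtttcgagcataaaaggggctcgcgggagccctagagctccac
Cxcl2, chr5:90903749-90903898, plus strand: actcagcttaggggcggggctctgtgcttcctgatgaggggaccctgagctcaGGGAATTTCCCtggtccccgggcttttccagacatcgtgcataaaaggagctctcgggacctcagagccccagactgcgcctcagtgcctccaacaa
Cxcl3, chr5:90785951-90786100, plus strand: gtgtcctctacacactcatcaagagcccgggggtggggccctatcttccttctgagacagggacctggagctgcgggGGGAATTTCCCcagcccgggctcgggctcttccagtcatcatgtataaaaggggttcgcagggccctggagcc
Il6, chr5:30012964-30013113, plus strand: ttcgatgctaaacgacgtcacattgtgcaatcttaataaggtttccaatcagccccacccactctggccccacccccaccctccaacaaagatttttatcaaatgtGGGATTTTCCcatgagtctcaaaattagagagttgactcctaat
The 3 chemokine genes carried the same 11 letters, GGGAATTTCCC, in which matches on opposite strands overlap. These began 71, 97 and 73 bases before the start, and Il6 carried GGGATTTTCC 44 bases before it. Cxcl5 held no match in this window. Of the matched members called higher, 4 of 7 in the neutrophil chemokine list held the motif (Cxcl1, Cxcl2, Cxcl3 and the receptor Ackr2). So did 6 of 10 NF-kB subunit and inhibitor genes, against 3 of 12 in the interleukin-6 list, 2 of 7 in the CC chemokine list and 0 of 4 among adhesion molecules. Members were counted by gene, with any promoter of a gene enough. These counts are thus a different measure from the shares of single promoters above. A match is a description of letters and not a measured binding site.

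CC chemokines and their receptors had 12 of 14 genes higher (median 2.46; 11 and 2.07 without replicate 1). Ccl2, the main monocyte attractant, read 2.58, 2.07 and 2.09 CPM in sham and 62.7, 43.3 and 36.1 CPM at 6 h (log2 change 4.40, SE 0.61, edgeR adjusted p = 0.000217). Ccl7, which acts on the same receptor, was the more even, at 1.97 to 2.27 CPM and 34.5, 29.9 and 23.3 CPM, and the eosinophil attractant Ccl11 rose by 1.78. Among the molecules by which leukocytes attach to vessels, 9 of 11 were higher (median 2.03; 6 and 1.39 without replicate 1). The endothelial selectins Selp and Sele rose by 6.66 and 3.72: Selp went from at most 0.311 CPM to 28, 18.8 and 8.79 CPM and Sele from 0.83 to 2.07 CPM to 28.7, 21.8 and 10.5 CPM. Icam1 rose by 2.03 and Vcam1 by 0.70.

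Of 21 neutrophil markers listed, 18 passed the count filter. Every 1 of these 18 was called higher, with a median log2 change of 6.75, and 16 of 18 without replicate 1 (5.84). Members with few or no sham counts could pass that filter only through libraries where they were high. The number called is therefore a description and no independent support. The summed level of the list was 8.44, 9.75 and 7.95 CPM in sham and 1207, 532 and 329 CPM at 6 h. S100a8, a calcium-binding alarmin abundant in neutrophils, read 0.455, 0.778 and 0.489 CPM in sham and 250, 97 and 30.5 CPM at 6 h (log2 change 7.77, SE 1.35, edgeR adjusted p = 0.00113; 6.80 without replicate 1). Lcn2, lipocalin-2, which neutrophils store and many stressed tissues also make, did not follow that order: it read 3.18, 3.01 and 2.31 CPM in sham and 175, 164 and 168 CPM at 6 h (5.90, SE 0.45, edgeR adjusted p = 1.60e-06; 5.88 without replicate 1). Ly6g stayed low in absolute terms, at 0 in every sham library and at 3.4, 0.861 and 0.426 CPM at 6 h. Mmp8, neutrophil collagenase, had 1 sham count in all and was higher by 761-fold (interval 136 to 30113). Without replicate 1 it was higher by 467-fold (83.2 to 18511). In bulk tissue more cells of a type and more RNA per cell cannot be told apart.

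Markers of recruited monocytes and macrophages were higher for 10 of 14 genes (median 1.90; 9 and 1.66 without replicate 1), with summed levels of 157, 158 and 183 CPM in sham and 511, 313 and 198 CPM at 6 h. Chil3, a marker of Ly6C-high monocytes, was higher by 156-fold (interval 75.5 to 389; 89.1-fold, 42.9 to 223, without replicate 1). Ccr2, their chemokine receptor, rose by 2.09. Markers of resident macrophages split, with 3 of 13 higher and 3 lower (2 and 4 without replicate 1; 3 and 5 with library totals). Cx3cr1, the fractalkine receptor, read 5.31, 7 and 7.6 CPM in sham and 1.25, 1.34 and 1.01 CPM at 6 h (-2.46, SE 0.33, edgeR adjusted p = 7.06e-05), and Timd4, a receptor for apoptotic cells on self-renewing macrophages, fell by 1.61. Cd163, the haemoglobin scavenger receptor, rose by 1.07 and Mrc1, the mannose receptor, by 0.90. The complement genes C1qa and C1qc, expressed throughout the lineage, were not called (log2 change -0.10 and -0.20). Of 9 lymphocyte markers tested 1 was called (1 of 12 tested without replicate 1), and of 9 mast cell and platelet markers 1 (0 without replicate 1).

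**Figure D2:**
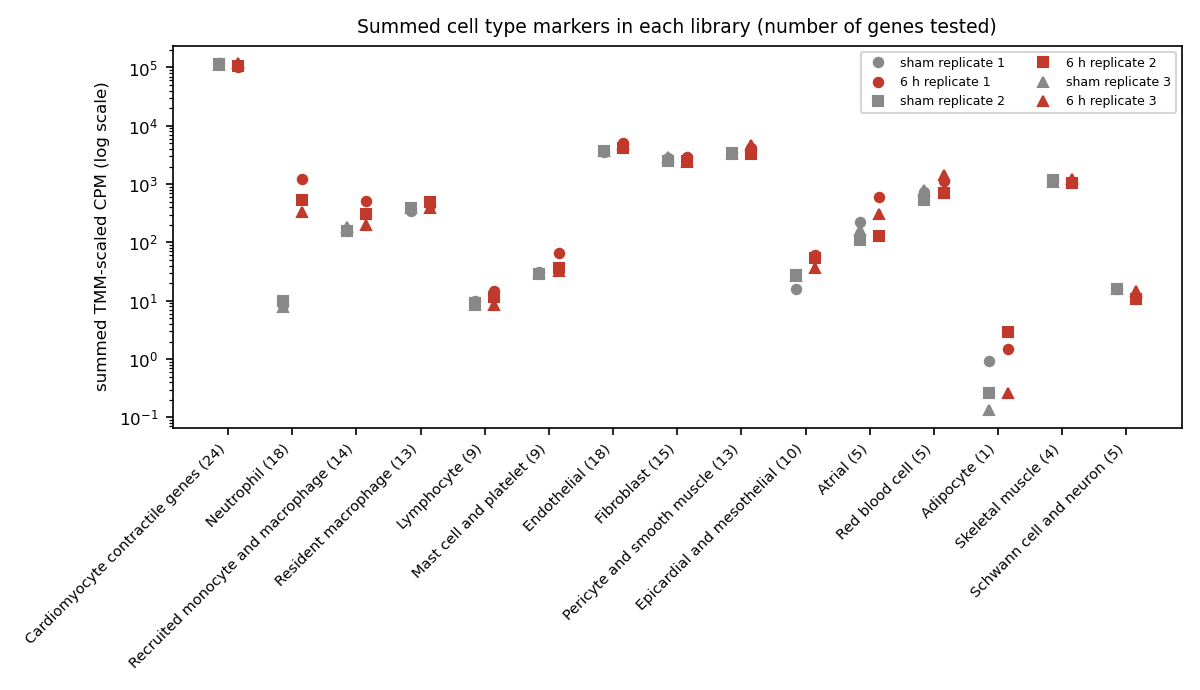
Summed CPM of each cell type list in each library on a log scale, with sham in grey, 6 h in red and the replicate shown by the shape of the point; the number of genes tested is in parentheses. Neutrophil sums separate most, at 7.95 to 9.75 CPM in sham and 329 to 1207 CPM at 6 h, and the sums of cardiomyocyte contractile genes overlap between the groups.

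Of 16 interferon-stimulated genes 0 were called higher and 4 lower (median -0.21; 0 and 5 without replicate 1, median -0.36; 0 and 6 with library totals). Ifit2, an interferon-induced RNA-binding protein, read 19.2, 20.1 and 21.3 CPM in sham and 15.9, 9.66 and 13.3 CPM at 6 h (-0.64, SE 0.14, edgeR adjusted p = 0.0029; -0.82, edgeR adjusted p = 0.000796 without replicate 1). Isg15, Irf7 and Mx1 overlapped between the groups and were not called. Replicate 1 was the highest of the 3 for 3 of the 4 genes called lower.

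Genes of clotting and fibrinolysis were higher for 11 of 15 (median 0.91), and for 7 of 15 without replicate 1, when 1 was lower (0.62). Plaur, the receptor that holds urokinase on cells, read 3.03, 3.16 and 3.15 CPM in sham and 134, 62 and 46.8 CPM at 6 h. Procr, the endothelial protein C receptor, rose by 2.34, Thbd, thrombomodulin, by 1.03 (edgeR adjusted p = 0.0619 when the 6 libraries were fitted alone) and Plat, tissue plasminogen activator, by 0.89. In prostaglandin synthesis 6 of 11 genes were higher and 1 lower (5 and 1 without replicate 1). Ptgs2, the inducible cyclooxygenase, went from at most 0.666 CPM to 56.1, 24.1 and 11.9 CPM, Ptgis, prostacyclin synthase, rose by 0.92, and Alox5, the 5-lipoxygenase of leukotriene synthesis, fell by 0.55.

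Inducible heat shock genes rose and several constitutive ones were not called. Of 22 tested 9 were higher and 1 lower (median 0.33; 7 and 1 without replicate 1, median 0.14). Hspa1a, an inducible HSP70 (chr17:34969190-34972156), read 2.63, 3.06 and 3.46 CPM in sham and 398, 141 and 97.9 CPM at 6 h (log2 change 6.11, SE 0.71, edgeR adjusted p = 6.23e-05; 5.28 without replicate 1), and its near-identical neighbour Hspa1b (chr17:34956436-34959238) read 2.7 to 5.37 CPM and 454, 165 and 94.9 CPM. Reads shared by the pair cannot be assigned with certainty. Hspb1, the small heat shock protein HSP27, read 284, 259 and 294 CPM in sham and 1946, 757 and 1467 CPM at 6 h (2.32, SE 0.25, edgeR adjusted p = 1.18e-05), so replicate 2 was the lowest mouse here and replicate 3 for Hspa1a. Dnajb1 and Dnajb4, partners of HSP70, rose by 1.56 and 0.99. The mitochondrial chaperones Hspd1 and Hspe1 and the constitutive Hsp90ab1 were not called (log2 change -0.06, -0.08 and 0.14), nor was Hsf1, the factor that drives the response (-0.11).

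The start regions of the 2 most induced kinds are shown because they hold the heat shock element searched for, GAANNTTC, which was in 7.86% of all promoters. Hspa1a and Hspa1b differed at 3 of 250 bases before the start, so 1 of them is printed, again as 150 bases before the start.
Hspa1a, chr17:34972157-34972306, minus strand: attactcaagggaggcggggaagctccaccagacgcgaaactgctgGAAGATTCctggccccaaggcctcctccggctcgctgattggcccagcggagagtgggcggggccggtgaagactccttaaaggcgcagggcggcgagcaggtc
Hspb1, chr5:135887769-135887918, plus strand: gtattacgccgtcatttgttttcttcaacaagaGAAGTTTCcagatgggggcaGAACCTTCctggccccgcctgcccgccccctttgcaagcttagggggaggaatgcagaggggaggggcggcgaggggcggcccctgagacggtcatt
The match began 104 bases before the start in Hspa1a and 117 and 97 bases before it in Hspb1. Of 17 list members matched to a promoter 10 held the element, and of the 6 matched members called higher 3 did (Hspa1a, Hspa1b and Hspb1). These were counted by gene, with any promoter of a gene enough. The share of single promoters, a different measure, was 6.05% over all genes called higher and 5.79% over the genes tested.

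The metallothioneins, small proteins that bind zinc and copper, rose evenly in the 3 mice. Mt1 (chr8:94179082-94180327) read 123, 118 and 123 CPM in sham and 1607, 1662 and 1844 CPM at 6 h (log2 change 3.81, SE 0.21, edgeR adjusted p = 4.33e-09; 3.85 without replicate 1). Mt2 (chr8:94172664-94173568) read 0.253, 0.467 and 0.311 CPM in sham and 41.2, 29.8 and 33.1 CPM at 6 h (6.64, SE 0.39, edgeR adjusted p = 1.04e-08), and was called without replicate 1 as well. Replicate 1 was the lowest mouse for Mt1 and the highest for Mt2, with no overlap with sham in either. Of 8 metallothionein and zinc transporter genes 6 were higher (5 without replicate 1), among them Slc39a14, a zinc and iron importer (1.25). The 250 bases before the RefSeq start of Mt2 are shown because they held 5 matches to the metal response element searched for, TGCNCNC. That start lies before the gene coordinates given above.
Mt2, chr8:94172368-94172617, plus strand: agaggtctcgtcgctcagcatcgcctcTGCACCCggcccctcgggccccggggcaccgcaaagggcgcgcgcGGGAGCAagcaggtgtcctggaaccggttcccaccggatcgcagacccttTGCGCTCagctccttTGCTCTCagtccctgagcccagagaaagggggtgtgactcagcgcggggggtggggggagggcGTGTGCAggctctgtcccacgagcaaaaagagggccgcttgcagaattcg
The matches began 223, 178, 128, 113 and 50 bases before the start. In Mt1 matches began 23 bases before the annotated start and 2 and 20 bases after it. The short motif was in 51% of all promoters and in 59.6% of those of the genes tested.

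In the integrated stress and unfolded protein response 11 of 25 genes were higher and 0 lower (median 0.65; 9 and 0.48 without replicate 1). Atf4, its central transcription factor, read 63.5, 61.8 and 70 CPM in sham and 192, 140 and 151 CPM at 6 h (log2 change 1.30, SE 0.16, edgeR adjusted p = 3.01e-05). Ppp1r15a, which restores translation, rose by 2.29, and Slc7a5, an importer of large neutral amino acids, by 2.47. Of 19 NRF2 and antioxidant genes 12 were higher and 0 lower (median 0.57; 10 and 0.48 without replicate 1). Hmox1, haem oxygenase-1, read 4.4, 5.39 and 5.91 CPM in sham and 116, 107 and 80.5 CPM at 6 h (4.27, SE 0.53, edgeR adjusted p = 9.78e-05; 4.16 without replicate 1). Txnrd1, thioredoxin reductase, rose by 1.25 and Nfe2l2, which encodes NRF2, by 0.57.

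Targets of hypoxia-inducible factors were higher in part, and few glycolytic genes were called. Over all genes tested 16.3% were called higher, and 10.3% without replicate 1, so the glycolytic counts lie near that share. Among 14 targets of hypoxia-inducible factors 7 were higher (median 0.60; 4 and 0.55 without replicate 1), among 5 factors and their regulators 1, Hif1a (1.27), and among 18 glycolytic enzymes and transporters 4 (median 0.13; 2 without replicate 1). With library totals 5 targets and 2 glycolytic genes were higher and 1 glycolytic gene was lower. Slc2a1, the GLUT1 transporter, read 18, 18.4 and 16.8 CPM in sham and 168, 97.5 and 84.5 CPM at 6 h (log2 change 2.72, SE 0.43, edgeR adjusted p = 0.000496), and Slc16a3, the lactate exporter MCT4, 3.94 to 5.29 CPM and 138, 67.4 and 51.9 CPM. Pfkp, the platelet phosphofructokinase, rose by 1.38 and Adm, adrenomedullin, by 1.80. Vegfa, Pdk1, Egln3 and Car9, all known targets, overlapped between the groups and were not called, with log2 changes of -0.18, 0.09, 0.17 and -0.04. The counts of Gapdh ran from 8.19 to 184 CPM within sham and are not interpreted.

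Most genes of mitochondrial fuel use were not called, beside a few large increases. The share of fatty acid genes called higher lay near the 16.3% over all genes tested. Of 28 genes of fatty acid uptake and oxidation 4 were higher and 0 lower (median 0.03; 4 and 0.10 without replicate 1; median -0.08 with library totals). Pdk4, the kinase that closes pyruvate dehydrogenase, read 167, 133 and 106 CPM in sham and 2370, 2210 and 2950 CPM at 6 h (log2 change 4.21, SE 0.56, edgeR adjusted p = 0.000149; 4.25 without replicate 1). Angptl4, an inhibitor of lipoprotein lipase, read 1.06, 1.56 and 1.78 CPM and 110, 75.9 and 169 CPM (6.32), Ucp3, a mitochondrial carrier of muscle, 18.8, 19.2 and 17.7 CPM and 49.1, 104 and 105 CPM (2.21), and Cd36, the fatty acid transporter, 1310, 1384 and 1254 CPM and 1882, 1988 and 2155 CPM (0.61). Replicate 3 was the highest for all 4 and replicate 1 for none. Enzymes of beta-oxidation were not called, for example Acadm (-0.08), Hadha (-0.02) and Cpt2 (-0.09). Of 30 nuclear genes of oxidative phosphorylation, 13 mitochondrially encoded genes and 18 genes of branched-chain amino acid and ketone breakdown, 0 were called in either direction (medians 0.03, 0.09 and 0.01; -0.07, -0.02 and -0.09 with library totals; 0.08, -0.01 and 0.05 without replicate 1).

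Of 49 ribosome biogenesis genes 40 were higher and 0 lower (median 0.60), 32 without replicate 1 (0.52) and 34 with library totals. Myc, the transcription factor that drives many of them and a member of the list, read 1.87, 2.28 and 2.31 CPM in sham and 61.7, 27.8 and 34.6 CPM at 6 h (log2 change 4.26, SE 0.40, edgeR adjusted p = 6.65e-06). Rrp12, a factor of ribosome export, read 26.9, 21.9 and 24.3 CPM and 86.4, 54.6 and 71.8 CPM (1.54, SE 0.15, edgeR adjusted p = 1.50e-06), and Nhp2, of the snoRNA particles that guide pseudouridine formation, rose by 0.81. Translation factors and tRNA synthetases were higher for 22 of 40 and lower for 1 (median 0.28), but only 11 and 1 were called without replicate 1 and 9 and 2 with library totals. Cytosolic ribosomal proteins were higher for 19 of 34 (median 0.27), 4 without replicate 1 and 3 with library totals. Eif1a, which scans for start codons, was an exception in size (2.13, SE 0.19, edgeR adjusted p = 1.13e-06; 1.93 without replicate 1). Polyamine and amino acid uptake genes were higher for 10 of 14 (0.91; 7 and 0.70 without replicate 1): Slc38a2, a glutamine and alanine importer, read 124, 117 and 135 CPM in sham and 532, 334 and 531 CPM at 6 h, and Sat1, which acetylates polyamines, rose by 2.29.

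**Figure D3:**
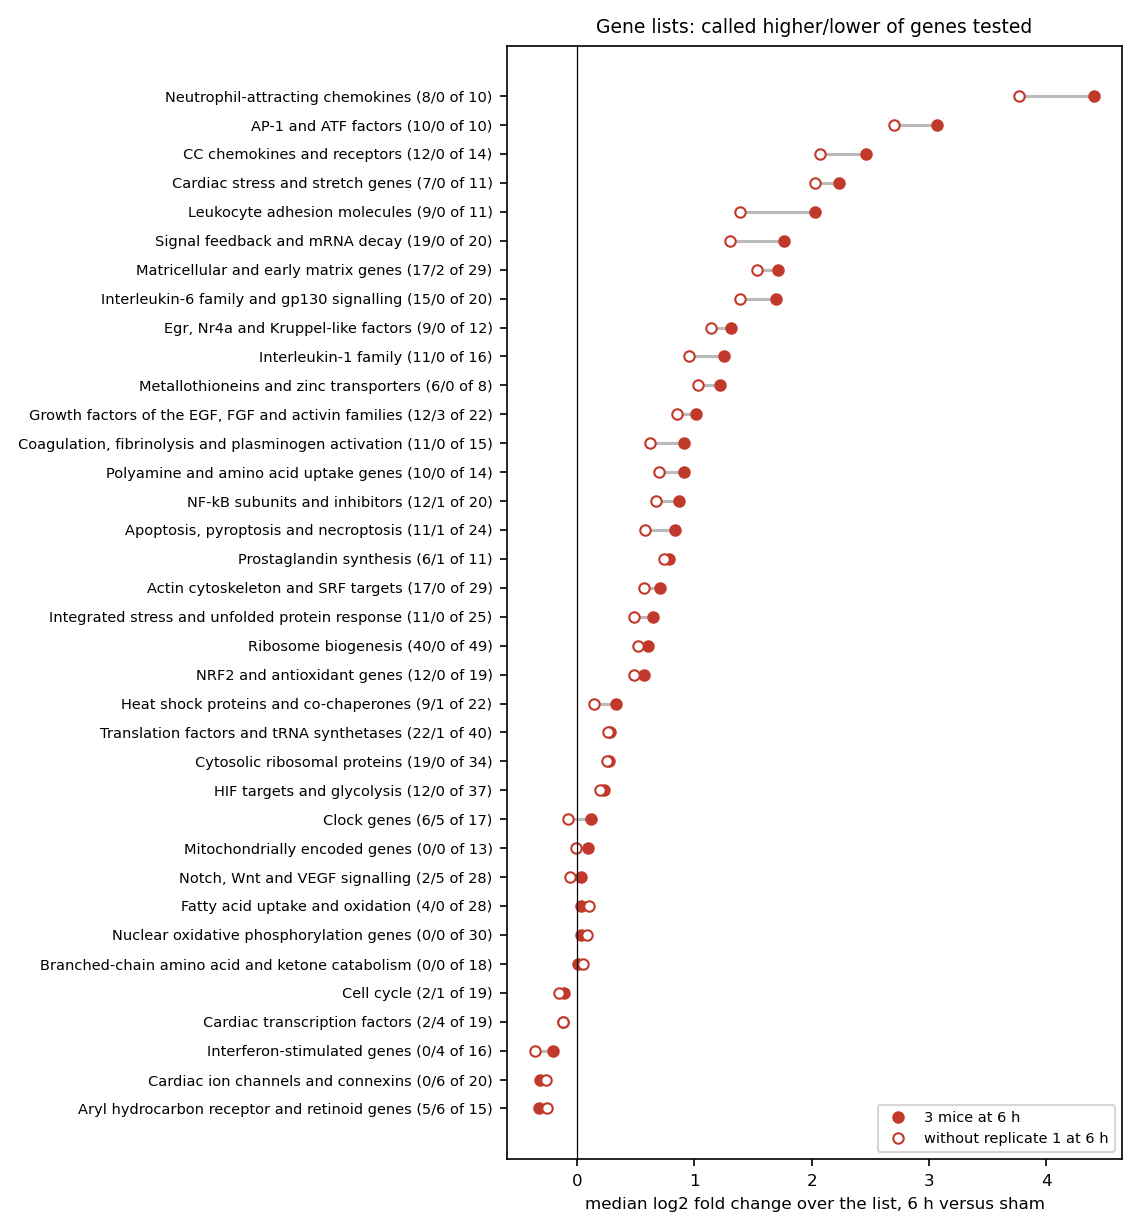
Median log2 fold change of each pathway list at 6 h against sham with 3 mice (filled) and without replicate 1 at 6 h (open), with the numbers called higher and lower of the genes tested beside each name. Medians run from 4.41 for neutrophil-attracting chemokines to -0.33 for aryl hydrocarbon receptor and retinoid genes, and the open points lie closer to 0 for the lists at the top.

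Cardiac stress and stretch genes rose, and of the contractile genes 1 was called. Of 11 stress and stretch genes 7 were higher, with the 3 mice (median 2.23) and without replicate 1 (2.03). Nppb, the B-type natriuretic peptide, read 271, 213 and 203 CPM in sham and 2456, 727 and 1887 CPM at 6 h (log2 change 2.88, SE 0.35, edgeR adjusted p = 4.67e-05). Ankrd1, a nuclear and sarcomeric stretch protein, read 796, 822 and 649 CPM and 4471, 2092 and 4088 CPM (2.23, SE 0.24, edgeR adjusted p = 6.65e-06). Replicate 2 was the lowest of the 3 for both, and still above each sham library. Rcan1, a target and inhibitor of calcineurin, was more even, at 60.3, 62.2 and 59.3 CPM and 444, 277 and 323 CPM (2.52, SE 0.17, edgeR adjusted p = 7.11e-08; 2.31 without replicate 1). Cdkn1a, the p21 cell cycle inhibitor, rose by 4.22, and Gdf15, a stress hormone of the TGF-beta family, by 3.87. Nppa and Myh7, the other classical fetal genes, were not called: Nppa read 206, 89.4 and 140 CPM in sham and 391, 112 and 285 CPM at 6 h, and Myh7 265, 240 and 215 CPM and 492, 189 and 818 CPM, so that replicate 2 lay within the sham range for Nppa and below it for Myh7.

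Of 29 actin cytoskeleton genes and targets of serum response factor 17 were higher and 0 lower (median 0.71; 15 and 0.57 without replicate 1; 14 higher with library totals). Xirp1 and Flnc, actin-binding proteins of the intercalated and Z discs, rose by 2.44 and 2.45, and Flnc read 323, 280 and 309 CPM in sham and 2668, 781 and 1543 CPM at 6 h. Tubb6, a tubulin that rises in remodelling muscle, rose by 1.89. Of 24 contractile genes 1 was called, Pln, phospholamban, which read 1760, 1671 and 1571 CPM in sham and 908, 1116 and 1243 CPM at 6 h (-0.61, edgeR adjusted p = 0.0182). Its call was lost without replicate 1 at 6 h (-0.50, edgeR adjusted p = 0.0986) and without replicate 1 of sham (-0.57, edgeR adjusted p = 0.0631), although all 6 h libraries lay below sham. The median of the list was -0.05 (-0.02 without replicate 1, when 0 of 24 were called). Its summed level was 112068 to 119965 CPM in sham and 101755 to 119457 CPM at 6 h.

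Of 20 cardiac ion channels and connexins 0 were higher and 6 lower (median -0.32; 0 and 3 without replicate 1, 9 lower with library totals). The 3 that stayed called were potassium channel subunits. Kcnj11, the pore of the ATP-sensitive channel, read 203, 198 and 192 CPM in sham and 89.6, 102 and 124 CPM at 6 h (-0.91, SE 0.17, edgeR adjusted p = 0.000938; -0.81, edgeR adjusted p = 0.00744 without replicate 1). Kcnq1, of the slow delayed rectifier, fell by 0.70 and Kcnj3, of the acetylcholine-activated channel, by 1.15. The calcium channel Cacna1c (-0.08) and connexin 43, Gja1 (0.09), were not called. Among 19 cardiac transcription factors 2 were higher and 4 lower (2 and 3 without replicate 1; 1 and 7 with library totals). Hand2 read 32.7, 37.3 and 41.2 CPM in sham and 74.9, 70.8 and 85.1 CPM at 6 h (1.05, SE 0.17, edgeR adjusted p = 0.000344), and Irx4, a ventricular identity factor, 44.8, 44.7 and 43.8 CPM and 20, 23.6 and 26.2 CPM (-0.93, SE 0.19, edgeR adjusted p = 0.00192).

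**Figure D4:**
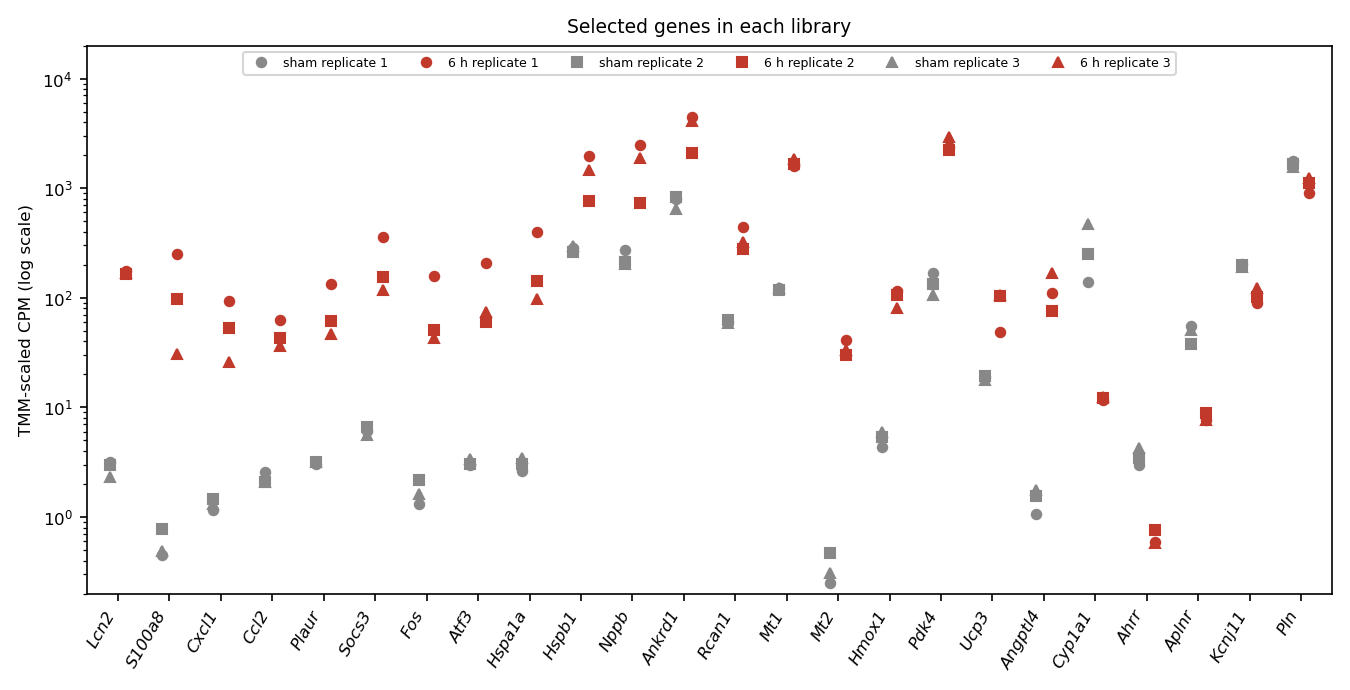
CPM of 24 genes in each of the 6 libraries on a log scale, with sham in grey, 6 h in red and the replicate shown by the shape of the point. The 3 points at 6 h lie together for Mt1, Lcn2 and Cyp1a1 and spread most for S100a8 (30.5 to 250 CPM).

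Genes of the aryl hydrocarbon receptor and of retinoids moved in both directions: 5 of 15 were higher and 6 lower, 3 and 6 without replicate 1 and 3 and 7 with library totals. Cyp1a1, the classical enzyme target of the receptor, spread widely in sham at 139, 253 and 468 CPM and was even at 6 h at 11.7, 12.2 and 12.4 CPM, without overlap (-4.56, SE 0.80, edgeR adjusted p = 0.00113; -4.54, edgeR adjusted p = 0.00842 without replicate 1). Ahrr, the receptor's repressor and also a target, fell from 2.98, 3.47 and 4.26 CPM to 0.596, 0.766 and 0.586 CPM (-2.45, SE 0.32, edgeR adjusted p = 3.79e-05). Tiparp and Cyp1b1, known as targets too, rose: Tiparp read 10.1, 11.7 and 12.7 CPM in sham and 70.4, 38 and 29.7 CPM at 6 h, and Cyp1b1 5.71, 7.16 and 8.53 CPM and 32.4, 25.6 and 26.5 CPM. Ahr itself was not called (-0.32). Among retinoid genes, Aldh1a2, which makes retinoic acid, read 3.13, 3.99 and 4.89 CPM in sham and 34.3, 27 and 20.7 CPM at 6 h (2.76, SE 0.27, edgeR adjusted p = 6.65e-06), while the receptors Rarb and Rarg fell by 1.06 and 0.95. Aldh1a2 is also a marker of epicardial and mesothelial cells, a list of which 4 of 10 were higher and 1 lower (3 and 0 without replicate 1). The summed level of that list was 15.9, 27.3 and 26.9 CPM in sham and 60.2, 54.8 and 36.3 CPM at 6 h, and its part in the rise of Aldh1a2 was not tested. The 150 bases before the start of Cyp1a1 are shown because they hold the core of the xenobiotic response element, GCGTG, once, 54 bases before the start. The core was in 32.4% of all promoters and in 47.7% of those of the genes tested. Counted by gene, with any promoter of a gene enough, 9 of 15 list members held it, among them the 5 called higher.
Cyp1a1, chr9:57697463-57697612, plus strand: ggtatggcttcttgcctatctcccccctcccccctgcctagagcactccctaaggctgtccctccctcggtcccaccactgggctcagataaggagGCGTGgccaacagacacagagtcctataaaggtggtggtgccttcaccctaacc

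Of 17 clock genes 6 were higher and 5 lower (4 and 5 without replicate 1). Dbp, an output gene of the clock, read 128, 128 and 119 CPM in sham and 35.3, 46.4 and 36.6 CPM at 6 h (-1.67, SE 0.40, edgeR adjusted p = 0.00718), and its relatives Hlf and Tef and the period gene Per3 fell by 1.39, 0.69 and 1.54. Arntl, which encodes BMAL1 and peaks in the opposite phase, rose from 1.02 to 1.42 CPM to 7.27, 3.83 and 5.86 CPM (2.28, SE 0.42, edgeR adjusted p = 0.000974; 2.06 without replicate 1). The hour of the day at which each mouse was killed is not given in the sources used here, so ligation and time of day cannot be told apart for these genes.

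Matricellular and early matrix genes were higher for 17 of 29 and lower for 2 (median 1.71; 16 and 1, and 1.53, without replicate 1). With library totals 17 were higher and 4 lower. Timp1, an inhibitor of metalloproteinases, read 1.97, 1.4 and 1.69 CPM in sham and 61.4, 41.4 and 41.9 CPM at 6 h (log2 change 4.83, SE 0.33, edgeR adjusted p = 4.97e-07; 4.62 without replicate 1). Thbs1, thrombospondin-1, read 5.65 to 7.82 CPM and 619, 245 and 205 CPM, and Ccn2, connective tissue growth factor, 30.9 to 36 CPM and 612, 208 and 513 CPM. Tnc and Adamts4, tenascin C and an aggrecanase, rose by 5.76 and 8.17 (4.69 and 7.47 without replicate 1), and Lox, which cross-links collagen, by 2.87 (2.78). Col3a1 read 131, 108 and 166 CPM in sham and 86.7, 84.2 and 56.8 CPM at 6 h (-0.83, SE 0.22, edgeR adjusted p = 0.00822; -0.94 without replicate 1). Col1a1 was not called (-0.55, edgeR adjusted p = 0.0697). Fibroblast markers as a list had 3 of 15 higher and 5 lower (2 and 4 without replicate 1), with Islr, a secreted protein of mesenchymal cells, lower by the most (-1.38, SE 0.23, edgeR adjusted p = 0.000505).

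Growth factors of the EGF, FGF and activin families were higher for 12 of 22 and lower for 3 (median 1.01; 11 and 2, and 0.85, without replicate 1). Hbegf, a membrane-bound ligand of the EGF receptor, read 19.3, 17.8 and 18.7 CPM in sham and 421, 173 and 273 CPM at 6 h (log2 change 3.96, SE 0.28, edgeR adjusted p = 5.09e-07). The activin subunit Inhbb read 2.02, 2.96 and 2.22 CPM and 135, 57.4 and 65.8 CPM (5.16), and its binding proteins Fst and Fstl3 rose by 4.07 and 2.75. Fgf2 rose by 1.59, while Fgf16, a cardiomyocyte growth factor, fell by 0.75. Of 24 genes of cell death 11 were higher and 1 lower (9 and 1 without replicate 1; 11 and 2 with library totals): Tnfrsf12a, the TWEAK receptor, read 49.1 to 50.4 CPM and 386, 206 and 402 CPM (2.73, SE 0.25, edgeR adjusted p = 3.86e-06), and Bcl2l1, an inhibitor of apoptosis, rose by 1.70. Of 19 cell cycle genes 2 were higher, Cdkn1a and Pcna, and 1 lower, Ccnd2 (-0.62). Without replicate 1 the counts were again 2 and 1. The call of Pcna (log2 change 0.34, edgeR adjusted p = 0.0151) was lost without replicate 2 of sham (0.31, edgeR adjusted p = 0.0606), without replicate 3 of sham (0.29, edgeR adjusted p = 0.0771) and with library totals (0.23, edgeR adjusted p = 0.137).

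Endothelial markers split, with 7 of 18 higher and 3 lower (5 and 3 without replicate 1; summed level 3544 to 3686 CPM in sham and 5019, 4164 and 4788 CPM at 6 h). The tight junction gene Cldn5 rose by 2.11, and Fabp4, a fatty acid carrier of capillaries, read 703, 693 and 655 CPM and 1223, 1159 and 1435 CPM (0.90, SE 0.11, edgeR adjusted p = 2.08e-05). Aplnr, the apelin receptor, read 55.7, 37.6 and 50.5 CPM in sham and 7.69, 8.99 and 7.72 CPM at 6 h (-2.55, SE 0.36, edgeR adjusted p = 0.000181; -2.52 without replicate 1), and Emcn and Tek fell by 0.63 and 0.42. Of 28 Notch, Wnt and VEGF genes 2 were higher and 5 lower (0 and 4 without replicate 1; 1 and 5 with library totals). Vegfc and Angpt1, growth factors of lymphatic and blood vessels, fell by 0.78 and 0.94.

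Among the largest changes outside the lists, Serpina3f, a secreted serine protease inhibitor, went from at most 0.0444 CPM to 10.5, 5.79 and 7.56 CPM (1 sham count in all). It was higher by 479-fold (interval 85.5 to 18955; 408-fold, 72.6 to 16182, without replicate 1). Saa3, an acute-phase apolipoprotein, read 0.0444 to 0.0519 CPM in sham and 19.7, 24.3 and 14.3 CPM at 6 h. It was higher by 402-fold (interval 137 to 1955; 401-fold, 137 to 1951, without replicate 1). Sh2d5 was higher by 377-fold (interval 129 to 1833; 250-fold, 85.2 to 1218, without replicate 1). Trem1, an amplifier of myeloid inflammation, was higher by 486-fold (interval 134 to 4018; 213-fold, 58.5 to 1771, without replicate 1). Both Serpina3f and Saa3 belong to families of close paralogs.  Rcor2, a corepressor of the LSD1 complex, read 13.2, 13.7 and 13.3 CPM in sham and 2.86, 2.82 and 3.83 CPM at 6 h (-2.08, SE 0.21, edgeR adjusted p = 3.36e-06), and Tet1, a 5-methylcytosine dioxygenase, 6.22, 6.53 and 5.95 CPM and 1.13, 1.77 and 1.38 CPM (-2.11). Ky, a Z-disc protein of muscle, and Akap5, a kinase anchor, fell by 2.58 and 2.99, Foxo6, a forkhead factor, by 2.70 and Lrrc4b, a synaptic adhesion protein, by 2.16. Among abundant genes the decreases were led, after Cyp1a1, by Asb2, a ubiquitin ligase subunit of muscle (637, 637 and 620 CPM in sham and 183, 212 and 237 CPM at 6 h), and Mmp15, a membrane-bound metalloproteinase (163 to 168 CPM and 53.6 to 69.4 CPM; -1.46, SE 0.16, edgeR adjusted p = 5.40e-06).

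The order of the 3 mice at 6 h was not the same for every list. Over all 2653 genes called higher, replicate 2 lay above replicate 3 in 1294. Among the members called higher, replicate 3 was the lowest mouse for 16 of 18 neutrophil markers and 9 of 10 markers of recruited monocytes and macrophages. The same held for 9 of 9 adhesion molecules, 8 of 8 genes of the neutrophil chemokine list and 11 of 12 CC chemokines and receptors. Replicate 2 was the lowest mouse for 7 of 7 cardiac stress genes, 7 of 7 endothelial markers and 14 of 19 feedback genes. In medians, the neutrophil markers stood 5.58, 4.25 and 3.38 log2 units above the sham mean in replicates 1, 2 and 3, and the cardiac stress genes 3.08, 2.18 and 3.05. A constant was added to each CPM value for these medians, which shrinks the differences of genes with few sham counts. They therefore compare the mice within a list, and not 1 list with another or with the fitted changes above. Members of a list share the same 3 mice, so these counts describe the mice and carry no test. The deposited FPKM columns of replicates 2 and 3 held each other's counts, so which mouse is called 2 and which 3 is uncertain, while their being different mice is not.

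**Figure D5:**
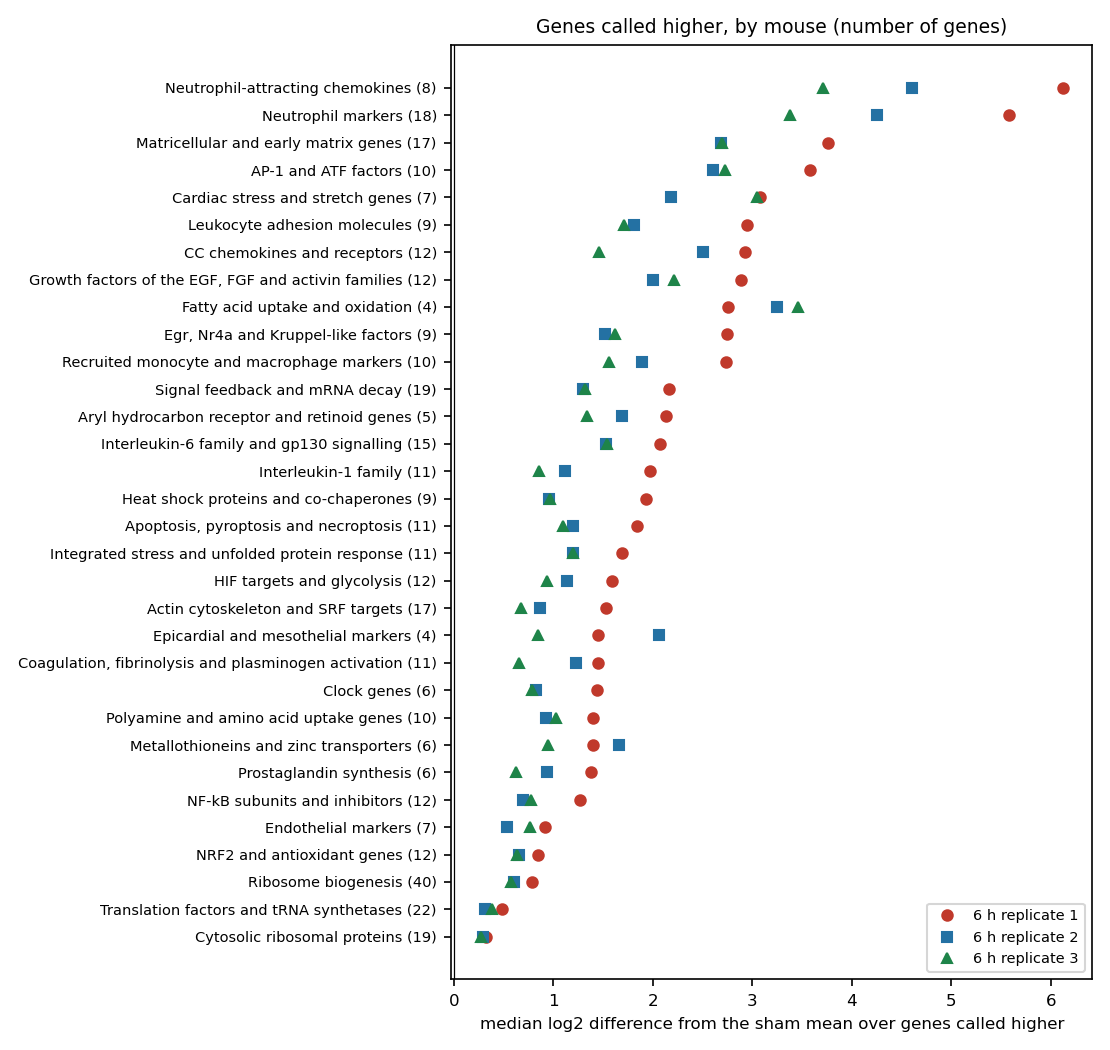
Median log2 difference from the sham mean over the members called higher of each list (number in parentheses), for each mouse at 6 h. A constant was added to each CPM value, which shrinks the differences in lists with few sham counts. Replicate 1 is the highest in most lists, replicate 3 (green triangles) trails in the chemokine, adhesion and leukocyte lists, and replicate 2 (blue squares) trails in the cardiac stress genes (2.18 against 3.05 and 3.08).

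Gene length and promoter letters were compared between the sets of genes. Neither was an input to the fit, but longer genes collect more reads and the calls rest on reads. The lengths are therefore not independent of the calls. The median exonic length was 3827 bases over all genes tested, 4017 in the higher and 4467 in the lower genes, and 3847 and 4739 without replicate 1, while the genes at least 2-fold higher were shorter (3304 bases). Among promoters matched to genes at least 2-fold higher, 10.7% held the AP-1 letters TGANTCA, 14.1% the TATA box TATAAA and 13.2% an NF-kB site, against 5.56%, 7.69% and 10.5% over the genes tested. Among those at least 2-fold lower the shares were 8.06%, 7.81% and 9.82%. The xenobiotic core went the other way. It was in 38.3% and 36.3% of the promoters of genes at least 2-fold higher and lower, and in 47.7% of those of the genes tested. These shares are descriptions, and base composition was not matched between the sets.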

How the data were processed

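RNA-seq counts per gene were compared between 3 hearts 6 h after ligation and 3 sham hearts. The deposited count table holds whole reads per gene, which the authors made with cutadapt 1.18, HISAT2 2.1.0 and featureCounts on mm10, per the submitters' processing notes. The strand setting is not given in the sources used here, so overlapping and antisense genes are uncertain. The deposited FPKM values were used in an alternative only, as log2(FPKM + 1) and log2(FPKM + 0.1). Values were checked to be the same in the series table and the sample tables.

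Genes with too few counts were left out with edgeR's filterByExpr (14272 of 30583). The quasi-likelihood test of edgeR 4.0.16 (R 4.3.3) with TMM scaling was fitted on all 18 libraries, so that the 6 groups share 1 estimate of the spread, with Benjamini-Hochberg adjustment over all genes tested and a threshold of 0.05. It was tested on simulated data. Alternatives were other scalings and filters, DESeq2 1.42.0, limma 3.58.1, a replicate block, the 6 libraries alone and each library left out. Where a group held few counts, the ratio of summed counts per effective library size is given with an exact 95% interval. There were no molecular identifiers.

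The members and gene lists were chosen with earlier results of these data known. A list is described by its counts and its median, with no test. Genes were named by rule: among called genes with at least 50 counts on average and groups that did not overlap, the 10 largest changes in each direction, the 5 largest among genes of at least 100 CPM, the 3 smallest adjusted p in each list, further members where a list is described by role, and the 3 largest changes in each direction against 1 h and 24 h. Not every gene that the rule allows is named. Promoters are from RefSeq (GRCm38.p6) and gene coordinates from GENCODE M21 (GRCm38), in which 30489 gene identifiers matched and 94 did not. Some results are not reported here.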

Additional observations from a re-analysis of the deposited data

Results flagged for a closer look

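For 10 genes the level at 6 h differed from that at 1 h or 24 h by the edgeR test of the difference itself, with the sham libraries common to both effects. These are the 3 largest differences in each direction in each comparison, among the genes that the naming rule admits. Against 1 h, the neutrophil attractants Cxcl5 (log2 difference 7.70, edgeR adjusted p = 3.70e-05) and Cxcl3 (9.36, edgeR adjusted p = 0.0397) and the arginase Arg1 (7.25, edgeR adjusted p = 0.00972) were higher at 6 h. The difference of Cxcl3 was lost without replicate 1 or 2 at 6 h and without any 1 of the 1 h libraries (edgeR adjusted p = 0.0632 to 0.118), with the replicate block (edgeR adjusted p = 0.0627) and with no filter on low counts (edgeR adjusted p = 0.0766). Cxcl3 and Arg1 had 2 and 3 counts in the 3 libraries at 1 h together, so the fitted differences depend on the prior count. Their summed, scaled counts were higher at 6 h by 738-fold (95% counting interval 204 to 6099) and 165-fold (56.2 to 804). Cyp1a1 (-3.91, edgeR adjusted p = 0.00323), Foxo6 (-2.33, edgeR adjusted p = 0.00565) and Akap5 (-2.16, edgeR adjusted p = 0.00218) were lower at 6 h than at 1 h. Cyp1a1 averaged 182 CPM at 1 h (SD 101, n = 3) and 12.1 CPM at 6 h (SD 0.382, n = 3).

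Against 24 h, Serpina3f (log2 difference 6.23, edgeR adjusted p = 2.38e-07), Hspa1a (3.51, edgeR adjusted p = 0.00112) and Cyp1a1 (3.47, edgeR adjusted p = 0.0181) were higher at 6 h. Serpina3f averaged 7.95 CPM at 6 h (SD 2.37, n = 3) and 0.107 CPM at 24 h (SD 0.0873, n = 3), where it had 7 counts in all. The fitted difference therefore depends on the prior count, and the ratio of summed, scaled counts was 78.7 (95% counting interval 37.9 to 197). Arg1 (-4.85, edgeR adjusted p = 0.00106), osteopontin, Spp1 (-4.20, edgeR adjusted p = 0.000285), and coagulation factor VII, F7 (-3.63, edgeR adjusted p = 6.45e-06), were lower at 6 h than at 24 h. F7 was not called at 6 h against sham (edgeR adjusted p = 0.0871). The difference of Cyp1a1 was lost without replicate 2 or 3 at 24 h (edgeR adjusted p = 0.0722 and 0.0705). With the 6 libraries of the comparison fitted alone, those of Arg1, Hspa1a and Spp1 missed the threshold (edgeR adjusted p = 0.082, 0.0643 and 0.0521).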

How the results depend on the processing

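The count of genes called at 6 h against sham, 4639, was 4015 to 4802 over the alternatives that kept all 6 libraries, and 2926 to 4655 with 1 library left out, lowest without replicate 1 at 6 h. Replicates 1, 2 and 3 of sham left out gave 3213, 3579 and 3408. Against 1 h, 4003 genes were called (24.5%), and 2481 to 4084 with 1 library left out, lowest when 6 h replicate 1 was dropped, and 2664 when 1 h replicate 2 was. Against 24 h, 4541 genes were called (27.8%, 2230 higher and 2311 lower at 6 h), 3607 to 5028 with 1 library left out, 1024 with the 6 libraries alone and 6880 with library totals (828 higher and 6052 lower). The cause was not tested.

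Replicate numbers did not pair the samples (correlations of deviations at 6 h and in sham -0.05, 0.04 and -0.02), and a fit with the number as a replicate block called 4540, 3915 and 4451 genes in the 3 comparisons. Of 192 values of named genes, 180 kept their direction and side of the threshold without replicate 1 at 6 h. Leaving out 1 library turned the sign of Myl7, called on all 3 mice (-2.59 to 7.35, negative without replicate 1 at 6 h), and of genes that were not called: Car9 (-0.59 to 0.34), Cpt2 (-0.18 to 0.03), Egln3 (-0.00 to 0.35), Gapdh (-0.72 to 4.27), Hadha (-0.07 to 0.03), Hsf1 (-0.21 to 0.01), Hspd1 (-0.18 to 0.01), Klf15 (-0.19 to 0.12), Mx1 (-0.44 to 0.17) and Vegfa (-0.32 to 0.01). Library totals and both FPKM scales turned Gja1 and Pdk1 (-0.02 each).

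Depth limits genes with few or no sham counts, whose fold is known only within wide counting intervals.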
